A study of Mus musculus with 24 samples.

Results

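DNA replication and S phase genes were examined in bulk RNA-seq of sorted mouse LSKs (bone marrow Lin-Sca-1+c-Kit+ cells, the fraction that holds stem cells and early progenitors). The 39 genes were taken as the rows of the deposited read-count table whose symbol equals one of 39 listed names, out of 24091 rows. All 39 were found, and all 39 were among the 13520 genes with enough counts to be tested. They were read across 24 libraries, each from 1 mouse, in 4 groups of 6 mice (3 females and 3 males).

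To copy its DNA once per division, a cell loads the MCM ring onto origins in G1 with the help of Cdc6 and Cdt1, and turns it into an active helicase at the start of S phase by adding Cdc45 and the GINS complex. Polymerases held on DNA by the Pcna clamp then copy both strands, Fen1 and Lig1 join the short pieces of the lagging strand, ribonucleotide reductase supplies the nucleotides, and Chaf1a, Chaf1b and Uhrf1 restore chromatin and DNA methylation behind the fork. Cyclin E, with Cdk2, drives entry into S phase, and E2F factors drive transcription of many of these genes. Long-term stem cells are mostly quiescent, while the multipotent progenitors that make up most LSKs cycle, so the level of such genes in sorted LSKs reflects a mixture of both.

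WT mice carried miR-142 and no BCR-ABL, and miR-142 KO mice lacked miR-142 (miR-142-/-) and carried no BCR-ABL. CP CML mice (miR-142+/+ BCR-ABL) and BC CML mice (miR-142-/- BCR-ABL) carried the SCLtTA/BCR-ABL transgenes, in which the SCL promoter, active in stem and progenitor cells, drives BCR-ABL once tetracycline is withdrawn, and both were sampled 2 weeks after that induction. The mice were on the C57BL/6 background; ages were not given for these libraries. LSKs are defined by surface markers, so leukemic and remaining normal LSKs of a CML mouse were not separated. The comparison of CP CML with WT and that of BC CML with miR-142 KO ask what differs with BCR-ABL, and the comparison of miR-142 KO with WT and that of BC CML with CP CML ask what differs with loss of miR-142.

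Mir142 had 94 to 127 reads in WT and 68 to 153 in CP CML libraries, and 0 in every miR-142 KO and BC CML library. Total counts per library were 16267965 to 24687077, and the fewest reads of any of the 39 genes in any library were 253, for Ccne1. Levels were summed over 7 marker genes of LSKs and their subsets (Kit, Ly6a, Ly6e, Cd34, Flt3, Cd48 and Slamf1). The sum lay between 3396 and 4249 CPM in all libraries, where CPM are read counts relative to library size, scaled with TMM factors. Only Kit and Ly6a encode the sorted proteins, c-Kit and Sca-1. Single genes shifted in opposite directions within the sum, so it does not show that the gate held. Ly6e averaged 690 CPM in WT and 1245 in miR-142 KO. Flt3, a receptor of lymphoid-primed progenitors, averaged 870 CPM in WT, 695 in CP CML, 370 in miR-142 KO and 297 in BC CML, and Ly6a, which encodes Sca-1, averaged 41.7, 51.9, 92.3 and 110 CPM in the same order. Of the 7, 2 were called higher and 2 lower in miR-142 KO against WT (edgeR adjusted p under 0.05), against 19.9% and 16.4% of all tested genes. In BC CML against CP CML 2 were called higher and 3 lower, against 20.4% and 17.6%. Markers of other cell types also differed between the groups. The summed level of 7 mast cell and basophil genes spanned 263 to 784 CPM in WT and 431 to 2984 in miR-142 KO. It spanned 1676 to 3111 with CP CML and 4660 to 9918 with BC CML. The single genes did not move alike. Cpa3 averaged 78.9 CPM in WT and 1131 in CP CML, and Cma1 2.35 and 572. In BC CML these 2 averaged 4101 and 1790 CPM, against 308 and 3.51 in miR-142 KO. Prss34 averaged 103 CPM in CP CML against 129 in WT, and 183 in BC CML against 449 in miR-142 KO. Mcpt8 averaged 164 CPM in BC CML against 301 in miR-142 KO. The other means were higher with BCR-ABL, with Gata2 nearly level in BC CML. The summed level of 7 erythroid genes was 408 to 565 CPM in WT and 96.0 to 174 in BC CML. The median summed level of 7 genes of neutrophil-primed progenitors was 2206 CPM in WT, 5891 in CP CML, 6654 in miR-142 KO and 7248 in BC CML. Of these genes 7 of 7 were called higher in miR-142 KO against WT, against 19.9% of all tested genes. In BC CML against CP CML 4 of 7 were called higher, against 20.4%, and Mpo had a lower mean (3950 against 4209 CPM). The summed level of 8 B cell and plasma cell genes had medians of 394 CPM in WT and 335 in CP CML, against 38.1 in miR-142 KO and 36.2 in BC CML. In bulk samples, fewer cells of a type and less RNA per cell cannot be told apart, and the part of these shifts in the results below was not tested.

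A miRNA acts directly on transcripts that hold a site for it, so the 39 genes were searched for 1 kind of site, an exact 7-base match to the miR-142 seed. The 2 mature miRNAs (RefSeq, GRCm38.p6, both on chromosome 11, plus strand) are shown with the seed, bases 2 to 8, in capitals, since the 7-base site in a target is its reverse complement.
mmu-miR-142a-5p: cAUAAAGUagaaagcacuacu
mmu-miR-142a-3p: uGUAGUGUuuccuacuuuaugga
The letters ACACTAC, which pair with the miR-142a-3p seed, were in the 3′ untranslated region of 0 of the 39 genes, against 6.30% of 12630 tested genes with such a region (GENCODE M21, 1 transcript a gene). ACTTTAT, which pairs with the miR-142a-5p seed, was in 2 of 39 (Mcm2 and Ccne2), against 14.5% of tested genes. Both sites are shown with the pairing letters in capitals.
Mcm2: tcaggtgacagACTTTATcaaaactattg
Ccne2: ataagaaagtcACTTTATtgcacactaag
Mcm2, a subunit of the MCM ring, differed from WT by a log2 fold change of 0.04 in miR-142 KO LSKs and from CP CML by -0.06 in BC CML LSKs, and neither passed the test (adjusted p = 0.694 and 0.483). Ccne2 is described with cyclin E below. A match is a description of letters and not of a working site. Other kinds of site, sites outside the 3′ untranslated region and other transcripts were not searched, and the regions were not matched for length.

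The promoters were read for the letters bound by E2F factors (TTTCCCGC, TTTCGCGC, TTTGCCGC or TTTGGCGC on either strand), in the 250 bases before to the 50 bases after each RefSeq start site (GRCm38.p6). Of the 39 genes, 32 had a promoter entry, and 12 of these 32 (37.5%) held such letters, against 4.59% of the 10447 tested genes with an entry. The letters CCAAT, bound by NF-Y, were in 53.1% of the 32 and 42.6% of the 10447, and the cell cycle letters TTTGAA or TTCGAA in 18.8% and 16.7%. Of the 18 E2F matches, 1 overlapped letters of another kind. Matches are shown from 3 MCM subunits, both loading factors, a GINS subunit, a polymerase subunit and a clamp loader subunit. These genes share the letters but, as described below, did not share a change. Each window is read in the direction of its gene, with the letters of 1 match in capitals. The windows of Mcm5, Mcm6 and Rfc3 also hold a further match, left wholly or partly in lower case.
Mcm3 (chr1:20820275-20820304, minus strand): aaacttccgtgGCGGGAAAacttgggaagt
Mcm5 (chr8:75109345-75109374, plus strand): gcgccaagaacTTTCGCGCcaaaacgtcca
Mcm6 (chr1:128359797-128359826, minus strand): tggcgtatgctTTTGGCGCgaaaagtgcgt
Cdc6 (chr11:98908002-98908031, plus strand): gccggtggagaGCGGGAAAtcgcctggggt
Cdt1 (chr8:122568036-122568064, plus strand): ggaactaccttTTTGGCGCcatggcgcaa
Gins3 (chr8:95633507-95633536, plus strand): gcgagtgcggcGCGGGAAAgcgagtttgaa
Pold1 (chr7:44548766-44548787, minus strand): cgtatcttgtgGCGGGAAAagc
Rfc3 (chr5:151651200-151651229, minus strand): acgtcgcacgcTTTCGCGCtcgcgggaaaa
The other members with the letters were Mcm7, Pola1, Lig1 and Uhrf1. Ccne1, Rrm2, Cdc45, Fen1, Tk1 and Dut held none in this window, which says only that these letters are not in it.

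All 39 genes were well expressed in LSKs. To compare genes with each other, CPM were divided by the gene length in kilobases given with the counts. In WT LSKs the highest levels per kilobase were those of Mcm6, Mcm3, Pcna, Rrm1 and Mcm7, and the lowest those of Ccne1, Gins3, Ccne2, Cdc6 and Mcm10. The same 5 genes led in BC CML LSKs, where Mcm6 averaged 171 ± 6.67 CPM per kilobase (SD, n = 6), against 194 ± 8.62 in WT. Ccne1, the lowest in WT with 7.81 ± 1.33 CPM per kilobase, was at 13.9 ± 1.41 in CP CML LSKs.

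**Figure D1:**
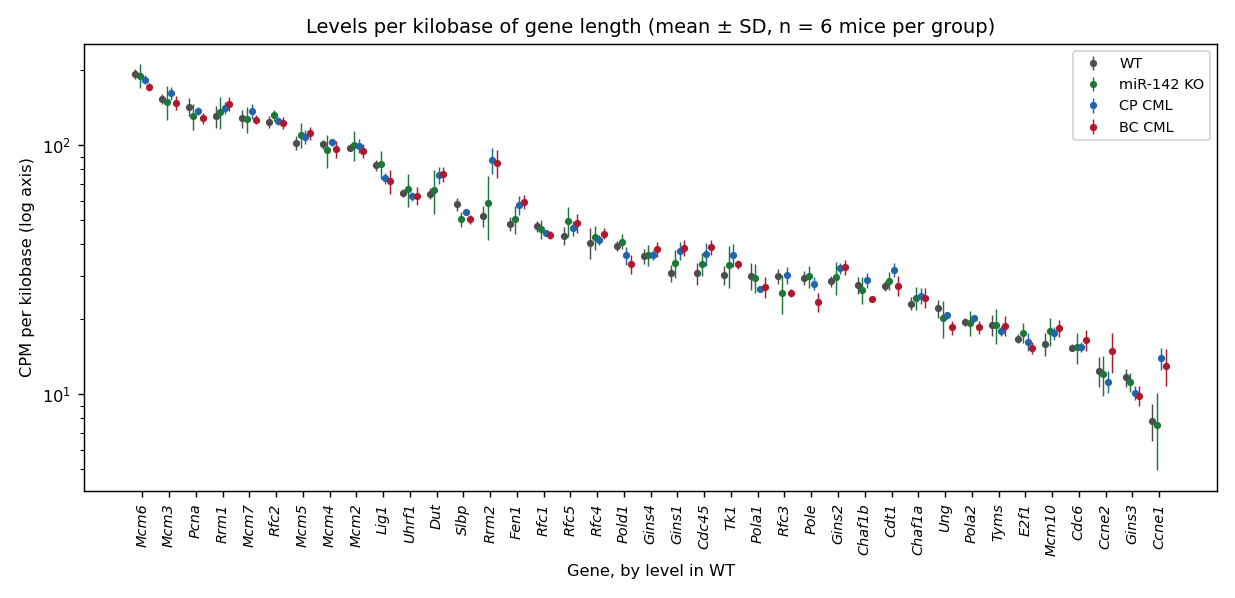
Mean level per kilobase of gene length (CPM per kilobase, log axis) of the 39 genes in each group, ordered by WT, with bars for the SD over 6 mice. Most genes sit at nearly one level in all 4 groups; Rrm2 and Ccne1 stand higher in both CML groups, and the SD is largest in miR-142 KO for most genes, with exceptions such as Rfc4 and Ccne2.

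One mouse of the miR-142 KO group stood apart in this gene group. In miR-142 KO mouse 3, a female, the mean log2 CPM of the 39 genes was 0.31 above the mean of the 24 libraries, while the other 5 miR-142 KO mice were between -0.12 and -0.04, WT mice between -0.10 and 0.07, CP CML mice between -0.06 and 0.13 and BC CML mice between -0.13 and 0.09. It was the highest of its group for 38 of 39 genes, against 30.8% of all tested genes, and the highest of all 24 libraries for 29 of 39 (74.4%), against 9.48%. The exception was Ccne2, where mouse 6 was higher. Its total count, 23532080, was within the range of the group.

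**Figure D2:**
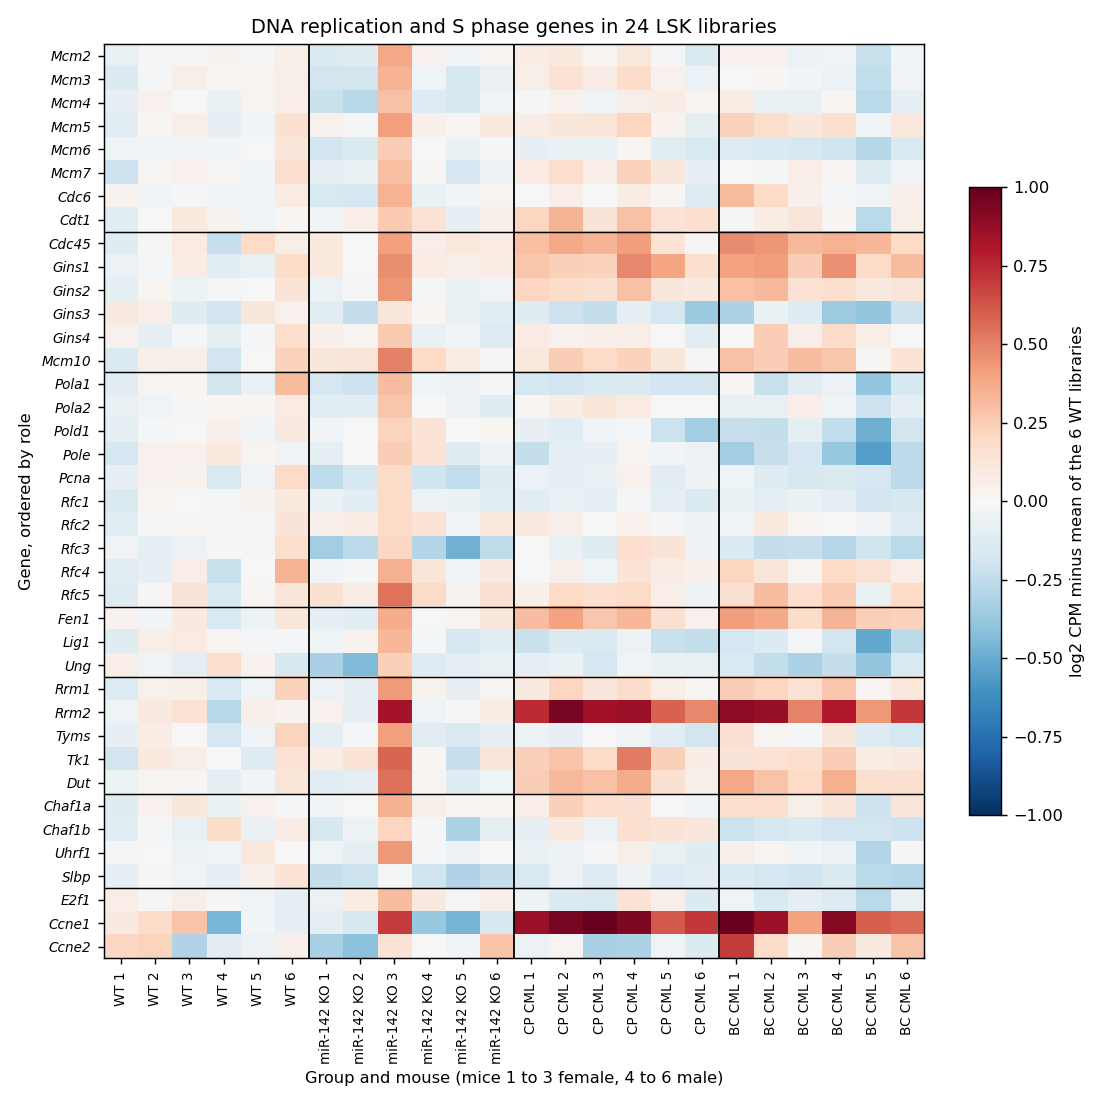
Log2 CPM of the 39 genes in the 24 libraries, minus the mean of the 6 WT libraries, with genes ordered by role and colours running from 1 lower (blue) to 1 higher (red). The column of miR-142 KO mouse 3 is red for nearly every gene, BC CML mouse 5 is blue for most, and the rows of Rrm2 and Ccne1 are red across both CML groups.

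Compared with the transcriptome, this gene group differed little between the 4 groups. The median of the absolute log2 fold changes was 0.10 in CP CML against WT, 0.10 in BC CML against miR-142 KO, 0.06 in miR-142 KO against WT and 0.08 in BC CML against CP CML, while that of all tested genes was 0.22, 0.20, 0.18 and 0.19. The gap was smaller against the 7982 tested genes within the expression range of the 39, whose medians were 0.16, 0.15, 0.13 and 0.14. The signed medians were 0.03, -0.01, 0.03 and -0.04, and those of all tested genes -0.02, -0.02, 0.01 and 0.01. The 95% interval of the log2 fold change lay within ±0.5 for 37, 36, 39 and 38 of the 39 genes in the same order, so that for these genes larger differences fall outside the interval. It lay within ±0.25 for 21, 21, 27 and 28 of them.
The share of genes called (edgeR quasi-likelihood test, Benjamini-Hochberg adjusted p under 0.05) was below the background in each comparison. In CP CML against WT, 9 of 39 (23.1%) were called, against 45.4% of all tested genes. For BC CML against miR-142 KO it was 12 of 39 (30.8%), against 39.6%. In miR-142 KO against WT the share was 3 of 39 (7.69%), against 36.3% (1 higher and 2 lower, against 19.9% and 16.4%), and in BC CML against CP CML 5 of 39 (12.8%), against 38% (1 higher and 4 lower, against 20.4% and 17.6%). Among the 7982 tested genes within the expression range of the 39, the shares were 48.9%, 43.4%, 36.9% and 39.1% in the same order. No gene was called in the difference of the miR-142 effects with and without BCR-ABL (edgeR, 0 of 39, against 3.99% of all tested genes, 1.91% higher and 2.08% lower); 3 genes had an unadjusted p under 0.05, and DESeq2 called 1 of them, Cdt1.

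**Figure D3:**
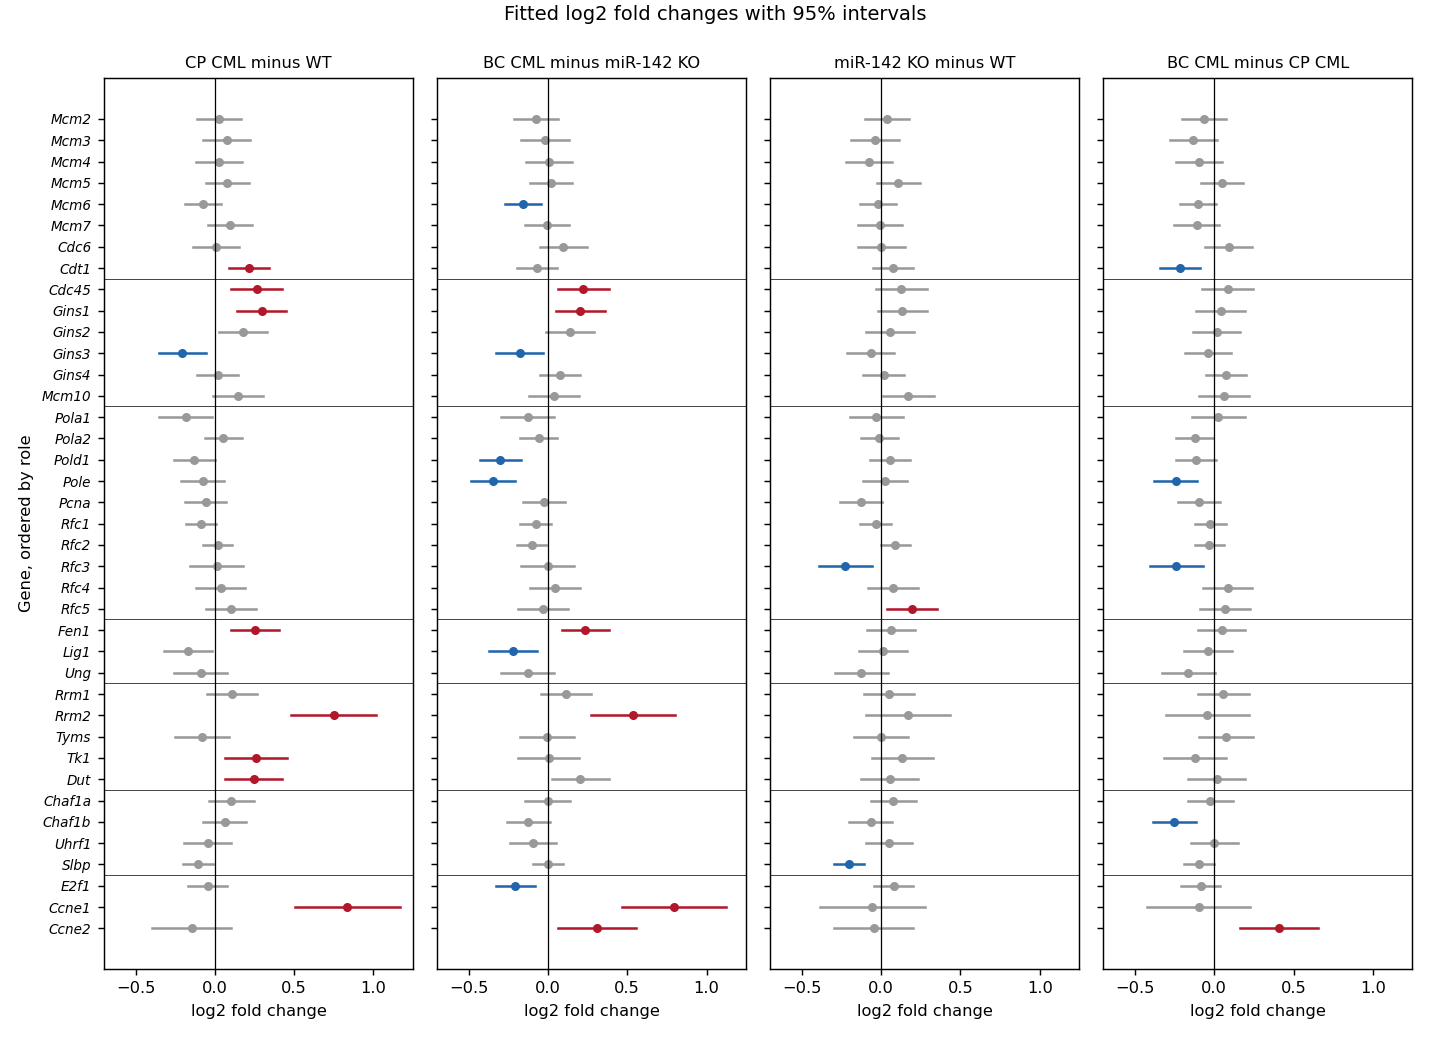
Fitted log2 fold change of each gene with its 95% interval in the 4 comparisons; red marks genes called higher, blue genes called lower, and grey genes that did not pass the test. Most intervals are narrow and cross 0, and the widest departures are those of Ccne1 and Rrm2 in the left pair of panels, 0.84 and 0.75 in CP CML against WT and 0.79 and 0.54 in BC CML against miR-142 KO.

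With BCR-ABL, cyclin E1 and the small subunit of ribonucleotide reductase moved most. CP CML against WT gave 8 genes higher (Ccne1, Rrm2, Gins1, Cdc45, Tk1, Fen1, Dut and Cdt1; 22.5% of all tested genes were higher) and 1 lower (Gins3; 22.9% were lower). BC CML against miR-142 KO gave 6 higher (Ccne1, Rrm2, Ccne2, Fen1, Cdc45 and Gins1; 20.3% of tested genes) and 6 lower (Pole, Pold1, Lig1, E2f1, Gins3 and Mcm6; 19.3%). These 2 comparisons share no mice, and 6 genes were called in both, all in the same direction (Ccne1, Rrm2, Cdc45, Fen1 and Gins1 higher, Gins3 lower), which is 66.7% of the first list and 50% of the second. For all tested genes the corresponding shares were 56.4% and 64.7%. With upper quartile in place of TMM factors, 8 were higher and 6 lower in the first comparison and 4 and 8 in the second, 1 and 10 in BC CML against CP CML, and 0 and 3 in miR-142 KO against WT. The calls of Ccne2, Cdc45, Gins1 and Gins3 in the second comparison were lost in 8, 7, 9 and 6 of the 12 fits that left out 1 mouse, and that of Gins3 in the first in 4 of 12.

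Ccne1 (chr7:38097984-38107490, mm10) encodes cyclin E1, the regulatory partner of Cdk2 at the G1/S transition. In CPM, the lowest, median and highest mice were at 10.9, 15.4 and 18.2 in WT, 10.8, 13.4 and 24.5 in miR-142 KO, 23.0, 28.0 and 29.98 in CP CML, and 19.9, 25.1 and 31.2 in BC CML. All 6 CP CML mice were above all 6 WT mice, whereas miR-142 KO and BC CML overlapped through miR-142 KO mouse 3 alone, since the other 5 miR-142 KO mice reached 14.1 at most. The fitted log2 fold change was 0.84 in CP CML against WT (95% interval 0.51 to 1.16, 78.4% higher; edgeR adjusted p = 0.000232) and 0.79 in BC CML against miR-142 KO (0.46 to 1.12, 73.3% higher; adjusted p = 0.00059). Between BC CML and CP CML it was -0.10 (-0.42 to 0.23; adjusted p = 0.651) and between miR-142 KO and WT -0.06 (-0.39 to 0.27; adjusted p = 0.812).

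Ccne2 encodes cyclin E2, which also binds Cdk2, and it did not follow Ccne1. The lowest, median and highest mice were at 32.1, 39.5 and 46.2 CPM in WT, 29.7, 39.3 and 48.4 in miR-142 KO, 31.7, 37.1 and 40.4 in CP CML, and 40.2, 46.1 and 64.5 in BC CML. Every pair of groups overlapped, although BC CML and CP CML did so only at 40 CPM. Ccne2 rose in BC CML against CP CML by 0.41 on the log2 scale (0.16 to 0.66, 32.7% higher; adjusted p = 0.00972) and against miR-142 KO by 0.31 (0.06 to 0.56; adjusted p = 0.0444), and it was the only gene of the 39 called higher in BC CML against CP CML (20.4% of all tested genes were higher there). Without BC CML mouse 1, the highest, the first value was 0.29 and still passed, and the second was 0.20 and did not. The Ccne2 row overlaps that of Ints8 on the opposite strand over 5622 bases. The strand setting of the counting was not given in the sources used here, so reads of the overlap cannot be told apart. Ints8 averaged 1424 reads and Ccne2 921. Ints8 differed by 0.10 between BC CML and CP CML (edgeR adjusted p = 0.456). It fell by 0.33 in miR-142 KO against WT (adjusted p = 0.0132) and by 0.28 in CP CML against WT (adjusted p = 0.0277). The Ccne2 values of those comparisons carry the same limit. Between miR-142 KO and WT the value of Ccne2 was -0.05 (-0.30 to 0.20; adjusted p = 0.788). Whether its miR-142a-5p letters work as a site was not tested.

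E2f1, an activator of S phase genes, spanned 48.6 to 54.3 CPM in the WT mice, 49.7 to 64.0 in those with miR-142 KO, 46.7 to 56.8 with CP CML and 42.8 to 50.1 with BC CML. It fell by 0.21 on the log2 scale in BC CML against miR-142 KO (13.4% lower; edgeR adjusted p = 0.00826), with the highest BC CML mouse and the lowest miR-142 KO mouse nearly level, and was not called in the other comparisons.

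Of the 5 genes of nucleotide supply, 3 rose in CP CML. Rrm2 (chr12:24708254-24714146), the small subunit of ribonucleotide reductase, which makes deoxyribonucleotides, had its lowest, median and highest mice at 92.6, 116 and 124 CPM in WT, 106, 114 and 200 in miR-142 KO, 157, 195 and 217 in CP CML, and 152, 190 and 209 in BC CML. The WT and CP CML mice did not overlap. The miR-142 KO and BC CML mice overlapped only through miR-142 KO mouse 3, whose Rrm2 level lay within the CML range, while the other 5 ended at 119 CPM. Rrm2 rose by 0.75 on the log2 scale in CP CML against WT (0.48 to 1.01, 67.9% higher; edgeR adjusted p = 7.94e-05) and by 0.54 in BC CML against miR-142 KO (0.27 to 0.80, 45.1% higher; adjusted p = 0.00227). Without miR-142 KO mouse 3 the latter was 0.70.
Rrm1, the large subunit of the same enzyme, was at 466 to 610 CPM in WT and 522 to 601 in CP CML, with a log2 fold change of 0.11 (-0.05 to 0.27; adjusted p = 0.261), so the 2 subunits did not move by a like amount. Tk1, thymidine kinase of the salvage route, rose by 0.26 in CP CML against WT (adjusted p = 0.0277), and Dut, which removes dUTP from the nucleotide pool, by 0.24 (adjusted p = 0.0258). In BC CML against miR-142 KO the Dut value was 0.20 (adjusted p = 0.0651) and the Tk1 value 0.00 (-0.19 to 0.20; adjusted p = 0.981). Without miR-142 KO mouse 3 the Dut value was 0.32 and was called (adjusted p = 8.69e-05). By the coordinates deposited with the counts, the row of Tk1 overlaps that of Afmid on the opposite strand over 10496 bases, its whole span. The Tk1 call was lost without WT mouse 1 and without CP CML mouse 4. Tyms, thymidylate synthase of the other route to dTTP, was called in none of the comparisons, and its log2 fold changes were -0.08 to 0.07.

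The factors that activate the helicase were split. Cdc45 rose by 0.26 in CP CML against WT (20.1% higher; adjusted p = 0.00855) and by 0.22 in BC CML against miR-142 KO (16.7% higher; adjusted p = 0.0262); its mice spanned 55.0 to 74.2 CPM in the WT mice, 64.5 to 85.8 in those with miR-142 KO, 65.1 to 86.3 with CP CML and 74.4 to 89.9 with BC CML, and the groups overlapped in both comparisons. The 4 GINS subunits act as 1 complex in equal numbers, yet their transcripts did not move together. Gins1 rose by 0.30 (22.8% higher; adjusted p = 0.00274) and 0.20 (15.2% higher; adjusted p = 0.0333) in the same comparisons, Gins3 fell by 0.21 (adjusted p = 0.0217) and by 0.18 (adjusted p = 0.0477), and Gins2 (0.18 and 0.14) and Gins4 (0.02 and 0.08) were not called in either. Without miR-142 KO mouse 3, Gins2 was called in BC CML against miR-142 KO (0.22, adjusted p = 0.00133) and Gins3 was not (-0.15, adjusted p = 0.0858). Gins3 was low in all groups, at 21.5 to 30.4 CPM. Mcm10, which helps Cdc45 onto the ring, had log2 fold changes of 0.04 to 0.17 in the 4 comparisons and was not called.

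The MCM ring changed little. The 6 subunits Mcm2 to Mcm7 gave 24 values over the 4 comparisons, of which 1 passed the test: Mcm6 fell by 0.16 on the log2 scale in BC CML against miR-142 KO (10.3% lower; adjusted p = 0.0286). Mcm6, the most abundant, had its lowest, median and highest mice at 831, 838 and 930 CPM in WT, 751, 831 and 1012 in miR-142 KO, 768, 809 and 866 in CP CML, and 701, 768 and 780 in BC CML. The call was lost without miR-142 KO mouse 4. Both groups overlapped there, since the lowest miR-142 KO mice were within the BC CML range. Of the loading factors, Cdc6 was called in no comparison (log2 fold changes of 0.00 to 0.10). Cdt1, whose protein loads the ring and is removed in S phase, was called in 2 comparisons.
Cdt1 spanned 86.5 to 99.8 CPM in the WT mice, 88.5 to 112 in those with miR-142 KO, 102 to 118 with CP CML and 77.5 to 101 with BC CML. All 6 CP CML mice lay above all WT mice and above all BC CML mice. It rose by 0.22 in CP CML against WT (16.1% higher; adjusted p = 0.00652) and fell by 0.21 in BC CML against CP CML (13.8% lower; adjusted p = 0.00813), with values of 0.07 in miR-142 KO against WT (adjusted p = 0.371) and -0.07 in BC CML against miR-142 KO (adjusted p = 0.375). The difference of the 2 miR-142 effects was -0.29 on the log2 scale and did not pass the edgeR test (adjusted p = 0.0619). It passed in 12 of the 24 fits that left out 1 mouse, with DESeq2 and with a minimum of 1 CPM.

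The catalytic subunits Pole and Pold1 were lower in BC CML than in miR-142 KO. Pole, the leading-strand polymerase, had its lowest, median and highest mice at 237, 274 and 286 CPM in WT, 246, 263 and 317 in miR-142 KO, 227, 255 and 272 in CP CML, and 183, 216 and 238 in BC CML. The BC CML mice were all below the miR-142 KO mice and overlapped WT and CP CML at their upper end. Pole fell by 0.35 on the log2 scale in BC CML against miR-142 KO (21.3% lower; adjusted p = 0.000392) and by 0.24 against CP CML (15.5% lower; adjusted p = 0.0058). Pold1, the lagging-strand polymerase, fell by 0.30 in BC CML against miR-142 KO (18.8% lower; adjusted p = 0.000755), with no overlap between 99.8 to 132 CPM in BC CML and 137 to 164 in miR-142 KO, and had -0.11 against CP CML (adjusted p = 0.15). Lig1, the ligase that seals Okazaki fragments, fell by 0.22 in BC CML against miR-142 KO (adjusted p = 0.0196), with Fen1, the flap nuclease of the same pathway, going the other way: it rose by 0.24 there (adjusted p = 0.0128) and by 0.25 in CP CML against WT (adjusted p = 0.00707). Pole and Pold1 were the 2 genes of the 39 without overlap in BC CML against miR-142 KO, where 10.6% of all tested genes did not overlap. The primase-bound polymerase subunits Pola1 and Pola2, the clamp Pcna, the loader subunits Rfc1, Rfc2 and Rfc4, and Ung, which removes uracil from DNA, passed the test in none of the 4 comparisons. The rows of Lig1, Rfc4, Gins2 and Chaf1a overlap those of 6330408A02Rik, Eif4a2, Gse1 and Ubxn6 on the opposite strand over 1409, 185, 118 and 2024 bases, and reads there cannot be told apart.
Rfc3 and Rfc5, small subunits of the clamp loader, which opens Pcna around DNA, were called in miR-142 KO against WT. Rfc3 spanned 44.6 to 53.8 CPM in the WT mice, 34.2 to 55.1 in those with miR-142 KO, 44.0 to 53.5 with CP CML and 39.1 to 43.3 with BC CML. It fell by 0.23 in miR-142 KO against WT (14.5% lower; adjusted p = 0.033) and by 0.24 in BC CML against CP CML (15.3% lower; adjusted p = 0.0233). These comparisons share no mice, and Rfc3 was the only gene of the 39 called in both. It made up 20% of the calls in BC CML against CP CML and 33.3% of those in miR-142 KO against WT. For all tested genes the shares were 55.6% and 58.2%. The BC CML and CP CML mice did not overlap, and the 5 miR-142 KO mice other than mouse 3 were all below WT, at 40.0 CPM or less. Rfc5 rose by 0.20 in miR-142 KO against WT (adjusted p = 0.0459); without miR-142 KO mouse 3 the value was 0.13 and was not called, and in BC CML against CP CML Rfc5 had 0.07 (-0.09 to 0.22; adjusted p = 0.516). Over the 12 fits that each left out 1 mouse, the Rfc3 call in miR-142 KO against WT was lost in 8 and that of Rfc5 in 6.

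Behind the fork, Chaf1b and Slbp were called. Chaf1b, a subunit of the CAF-1 histone chaperone, had its lowest, median and highest mice at 99.1, 104 and 121 CPM in WT, 85.7, 102 and 124 in miR-142 KO, 101, 115 and 119 in CP CML, and 92.1, 93.7 and 96.6 in BC CML. All BC CML mice lay below all CP CML mice, and Chaf1b fell by 0.25 on the log2 scale (0.11 to 0.39 lower; 16% lower; adjusted p = 0.00442). Chaf1a, its partner, had -0.02 there (-0.17 to 0.12; adjusted p = 0.802). Cdt1, Rfc3 and Chaf1b were the 3 genes without overlap in BC CML against CP CML, where 20.7% of all tested genes did not overlap; in CP CML against WT the 3 were Ccne1, Rrm2 and Cdt1, against 21.8%, and in miR-142 KO against WT there was none, against 14.5%.
Slbp binds the stem-loop that ends replication-dependent histone mRNAs. It spanned 116 to 136 CPM in the WT mice, 99.8 to 122 in those with miR-142 KO, 111 to 119 with CP CML and 101 to 112 with BC CML, and it fell by 0.20 in miR-142 KO against WT (13% lower; adjusted p = 0.00143). Its other values were -0.11 in CP CML against WT (adjusted p = 0.0613), -0.10 in BC CML against CP CML (adjusted p = 0.1) and -0.002 in BC CML against miR-142 KO. Uhrf1, which guides maintenance DNA methylation, was called in no comparison, with log2 fold changes of -0.09 to 0.05.

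**Figure D4:**
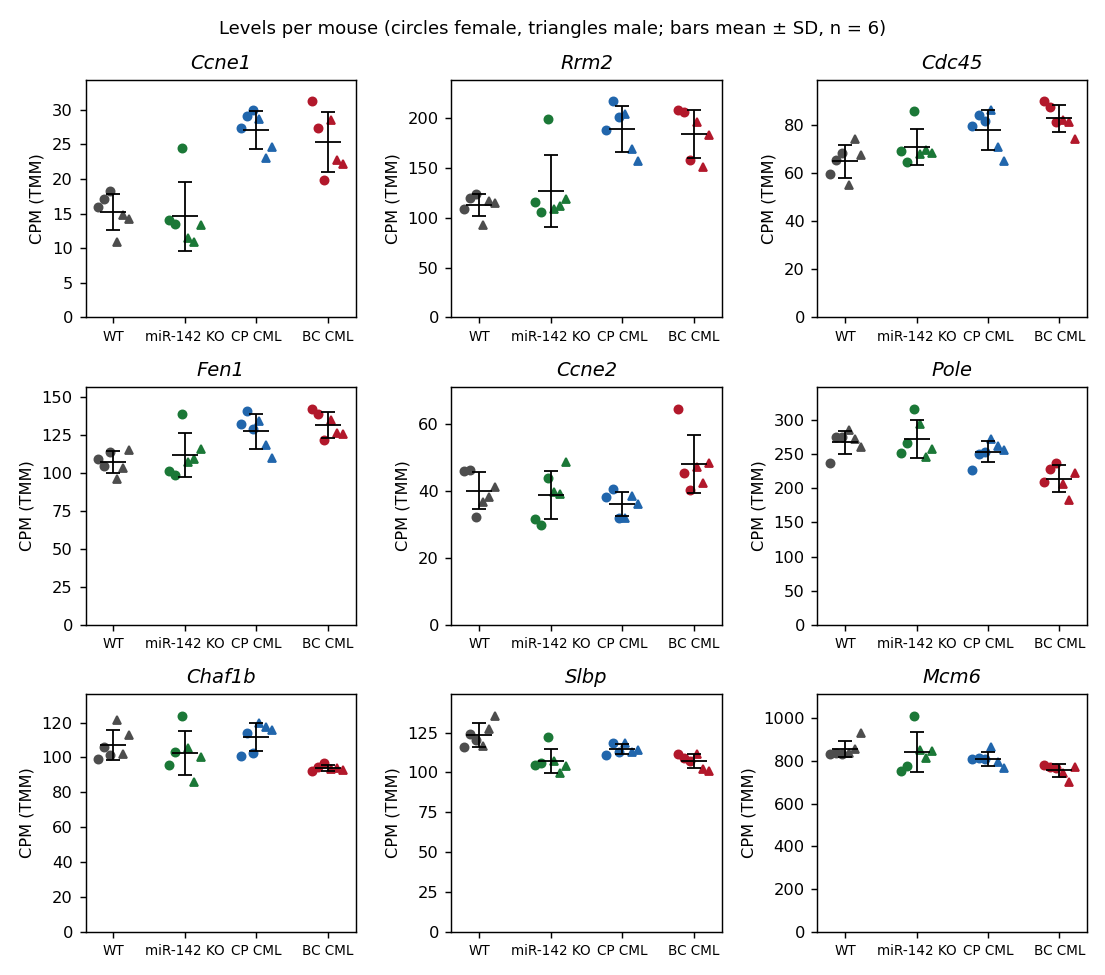
Level per mouse in CPM of 9 genes in the 4 groups, with circles for females, triangles for males and bars for mean ± SD over 6 mice. Ccne1 and Rrm2 step up in both CML groups, Pole and Chaf1b are lowest in BC CML, and 1 miR-142 KO female lies above the rest of its group in all panels but Ccne2.

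The counts were also read beside the E2F letters shown above. In CP CML against WT, 1 of the 12 genes with the letters rose (Cdt1) and 1 fell (Gins3), while 6 of the 20 genes with an entry and no letters rose and 0 fell, with medians of -0.02 and 0.08. Among the 12, 0 rose and 4 fell in BC CML against miR-142 KO, and among the 20, 4 rose and 1 fell, with medians of -0.08 and -0.001. In BC CML against CP CML the counts were 0 and 2 among the 12 and 0 and 1 among the 20, and in miR-142 KO against WT 0 and 1 among the 12 and 1 and 1 among the 20. The shares of all tested genes called higher and lower were 22.5% and 22.9%, 20.3% and 19.3%, 20.4% and 17.6%, and 19.9% and 16.4%, in the order given here. These counts are descriptions of small sets.

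Of the other lists, miR-142 KO mouse 3 was the highest of its group for 15 of 15 origin firing and fork protection genes, 24 of 27 nucleotide supply genes and 11 of 12 chromatin assembly genes outside the 39, and for 22 of 38 mitosis genes. It was the lowest of its group for 7 of 8 mature neutrophil markers, 6 of 7 B cell and plasma cell markers, 7 of 7 erythroid markers and 5 of 6 megakaryocyte markers. The share of all tested genes that were lowest in this mouse is not given here, so these marker counts have no background beside them. Its summed erythroid level was 164 CPM, against up to 371 in the group, and its summed mature neutrophil level was 18.6 CPM, against a group median of 117. Other marker sums were not lowest in this mouse. It had 301 CPM of macrophage and monocyte genes (lowest of the group 235) and 125 of T and NK cell genes (lowest 116). Of mast cell and basophil genes it had 912 CPM (lowest 431). Its part in the miR-142 KO comparisons could be measured by leaving it out. Then miR-142 KO against WT gave 0 genes higher and 5 lower (Mcm4, Pcna, Rfc3, Slbp and Ung), in place of 1 and 2, and BC CML against miR-142 KO gave 10 higher (Ccne1, Ccne2, Cdc45, Cdc6, Dut, Fen1, Gins1, Gins2, Rrm1 and Rrm2) and 5 lower, in place of 6 and 6. Of the genes called only without it, Mcm4, Pcna and Ung had -0.15, -0.19 and -0.20 in miR-142 KO against WT, and Cdc6 and Rrm1 had 0.17 and 0.19 in BC CML against miR-142 KO. The median log2 fold change became -0.03 and 0.05.

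Between other mice the 39 genes also rose and fell together. BC CML mouse 5, a male, was the lowest of its group for 26 of 39 genes (66.7%, against 19.2% of all tested genes), CP CML mouse 6 for 25 (64.1%, against 23%), and WT mouse 6 and CP CML mouse 4 were each the highest for 25 (against 21% and 15.3%). Without BC CML mouse 5 the same 4 genes and Ccne2 were called in BC CML against CP CML.

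The wider replication machinery, in lists of other genes of the same pathways, moved in both directions in most comparisons. In CP CML against WT, 4 of 11 licensing genes rose and 0 fell, 2 of 15 firing and fork protection genes rose and 2 fell, and 2 of 16 polymerase, primase and RPA genes rose and 3 fell. Of all tested genes, 22.5% were called higher and 22.9% lower there. Without WT mice 1 and 4, 2 licensing genes rose and 1 fell. Orc2, a subunit of the origin recognition complex, rose by 0.29 on the log2 scale in CP CML against WT and by 0.38 in BC CML against miR-142 KO, while Cdc7, the kinase that fires origins, fell by 0.37 and by 0.26. Of the nucleotide supply genes outside the 39, 16 of 27 rose and 3 fell in CP CML against WT (median 0.23), and 9 rose and 3 fell in BC CML against miR-142 KO (17 and 3 without miR-142 KO mouse 3). With all mice, 20.3% of all tested genes were called higher and 19.3% lower in the latter comparison. Mthfd2, a mitochondrial enzyme of one-carbon metabolism, was at 27.4 ± 3.93 CPM in WT and 56.3 ± 8.80 in CP CML (SD, n = 6; log2 fold change 1.04, edgeR adjusted p = 4.18e-05), and Gmps, of GMP synthesis, at 124 ± 10.3 and 172 ± 11.4 (0.48, adjusted p = 0.000186).
Mitosis genes, the next stage of the cycle, gave another pattern. In BC CML against CP CML, 21 of 38 rose and 0 fell (median 0.23), beside the 1 and 4 of the 39 replication genes and the 20.4% and 17.6% of all tested genes called higher and lower. Anln, a scaffold of the contractile ring, was at 109 ± 8.47 CPM in CP CML and 217 ± 15.4 in BC CML (log2 fold change 0.99, adjusted p = 2.23e-09), and at 108 ± 15.9 in WT and 182 ± 13.97 in miR-142 KO. Against miR-142 KO, 6 rose and 0 fell in BC CML, where 20.3% of all tested genes were called higher and 19.3% lower. The comparisons with WT rest on WT mice 1 and 4, whose mean over the mitosis list was 0.38 and 0.52 below that of the 24 libraries on the log2 scale, with the other WT mice between -0.01 and 0.07. In miR-142 KO against WT, 11 rose and 1 fell with them and 2 rose and 4 fell without them, and in CP CML against WT 7 rose and 5 fell with them and 1 rose and 15 fell without them. With them, 19.9% and 16.4% of all tested genes were called higher and lower in the first comparison and 22.5% and 22.9% in the second. WT mice 1 and 4 also had the lowest WT means of the 39 replication genes, at -0.09 and -0.10 from the mean of the 24 libraries. The other WT mice were between -0.03 and 0.07. For the 39 genes, leaving out mice 1 and 4 gave 5 higher and 3 lower in CP CML against WT, in place of 8 and 1. In miR-142 KO against WT it gave 0 and 2, in place of 1 and 2.

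**Figure D5:**
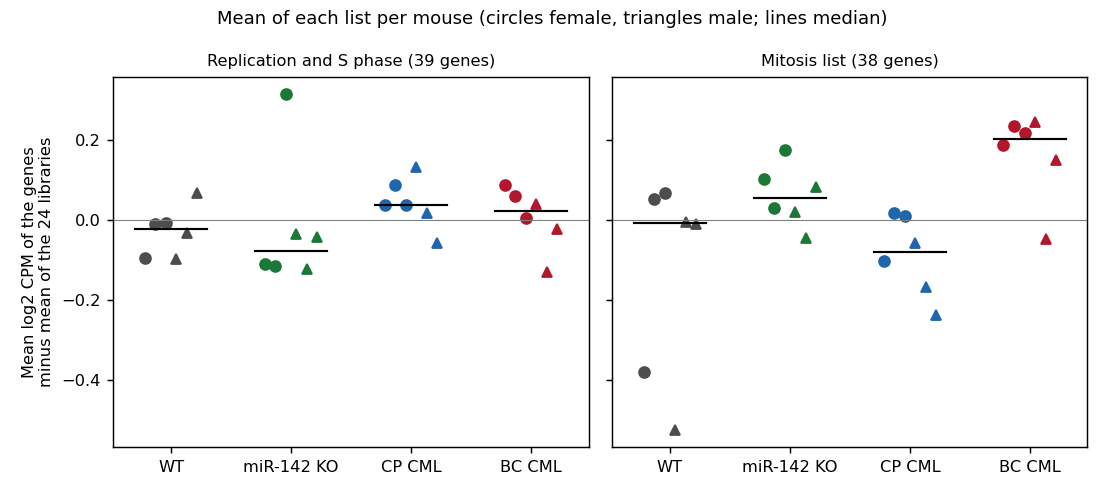
Mean log2 CPM of the 39 replication and S phase genes (left) and of 38 mitosis genes (right) in each mouse, minus the mean of the 24 libraries, with circles for females, triangles for males and lines at the group median. The left panel shows the 4 groups at one level with miR-142 KO mouse 3 at 0.31, and the right panel shows BC CML highest, with a median of 0.20, and WT mice 1 and 4 at -0.38 and -0.52.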

How the data were processed

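Bulk RNA-seq of LSKs from 24 mice was analysed, with 6 mice a group by the labels; the study's methods give a smaller n per group. The values deposited by the authors are raw read counts per gene, without normalization. Per their methods and processing notes, RNA libraries (Kapa mRNA HyperPrep, poly(A) RNA) had adapters and polyA tails removed (Trimmomatic, FASTP), and STAR 2.6.0 and HTSeq 0.11.1 served for mapping to mm10 and for counting; the annotation and strand setting are not given in the sources used here. Labels give 1 mouse ID a library. Pairs of libraries in a group differed by at least 6.07 times counting noise (chi-square per degree of freedom), so none was counted as a duplicate.

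From the counts, CPM with TMM factors were computed (log2 values with a prior count of 2) and edgeR 4.0.16 (R 4.3.3) fitted all 24 libraries in 1 model after filterByExpr, with quasi-likelihood tests and Benjamini-Hochberg adjustment over 13520 genes. The steps were tested on simulated data. The alternatives were the likelihood ratio test used by the study, DESeq2 1.42.0, other size factors and filters, sex as a covariate, 12 libraries only, each sex alone, a fold limit, and each mouse left out. The deposited gene length served CPM per kilobase. Dividing by total RNA hides any change in RNA per cell. The members and lists were chosen with earlier results of these data known, and the miR-142 sites, the split by E2F letters and the fits without WT mice 1 and 4 were added after values were seen. Text names all members, and in other lists up to 4 genes a comparison by smallest p, with the checks of the gate and of Mir142. A count of 0 allows up to 3 counts. The p-values measure the spread between mice together with counting error, which were not separated.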

Additional observations from a re-analysis of the deposited data

Results flagged for a closer look

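Of 156 combinations of a gene and a group, 31 held an outlying mouse. Its gap to the next, divided by the range of the 6 mice, was over Dixon's limit for 6 samples. The combinations are not independent, because the 39 genes rose and fell together between mice, so no chance rate is set beside the 31. The mean of the 39 genes in miR-142 KO was a further outlier, at 0.31 in mouse 3. Of these 32 outliers, 25 were in miR-142 KO mouse 3. That mouse was the highest of its group with 429 CPM of Mcm2, 562 of Mcm3, 477 of Mcm5, 376 of Mcm7 and 96.7 of Cdc6. Among helicase activators it had 85.8 CPM of Cdc45, 48.8 of Gins1, 39.9 of Gins2 and 137 of Mcm10. Among polymerase, clamp and ligase genes it had 318 CPM of Pola1, 156 of Pola2, 203 of Pcna, 317 of Rfc1, 55.1 of Rfc3, 134 of Rfc5 and 365 of Lig1. Of the others it had 697 CPM of Rrm1, 199.7 of Rrm2, 98.4 of Tyms, 234 of Dut, 164 of Chaf1a, 317 of Uhrf1, 122 of Slbp and 24.5 of Ccne1.

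In WT, mouse 6 was highest for Mcm6 with 930 CPM (the others 831 to 857) and mouse 5 for Uhrf1 with 252 (226 to 234). In CP CML, mouse 4 was highest for Pcna with 184 CPM (165 to 172). In BC CML, mouse 5 was lowest for Mcm3 with 371 CPM, Chaf1a with 111 and Uhrf1 with 191, and mouse 1 was highest for Ccne2 with 64.5 (40.2 to 48.3).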

How the results depend on the processing

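No paired analysis was possible because the labels give mouse IDs and no replicate numbers shared between groups. With a log2 fold limit of 0.5 the only calls were Ccne1 and Rrm2, 2 higher and 0 lower in each of CP CML against WT and BC CML against miR-142 KO, with 0 and 0 in both miR-142 comparisons. Females alone gave 0 calls except 3 higher and 0 lower in CP CML against WT; males alone gave 3 higher and 0 lower there, 3 and 2 in BC CML against miR-142 KO, and 0 higher in miR-142 KO against WT, where fewer mice were tested. For BC CML against CP CML, 10 genes were lower with upper quartile factors and 10 with only the 12 libraries compared. With only 12 libraries 3 were lower in BC CML against miR-142 KO. In CP CML against WT, 3 were lower with DESeq2, 6 with upper quartile factors, 2 with sex as a covariate and 3 with only 12 libraries; without WT mice 1 and 4 (chosen after seeing the data), 5 were higher and 3 lower. In miR-142 KO against WT, 0 were higher with upper quartile factors, without a filter on low counts, with only 12 libraries and without WT mice 1 and 4, and 1 was lower with only 12 libraries. In the difference of the miR-142 effects, 1 gene (Cdt1) was called lower with DESeq2 and with a minimum of 1 CPM in 6 libraries. Where no construction is named, the cause was not tested.

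Leaving out each mouse in turn gave 7 to 10 genes higher and 0 to 3 lower in CP CML against WT, 3 to 10 and 4 to 8 in BC CML against miR-142 KO, 0 to 3 and 1 to 5 in miR-142 KO against WT, 1 and 4 to 6 in BC CML against CP CML, and 0 and 0 to 2 in the difference (Cdt1 in 12 and Pole in 3 of 24 fits). Gins3 in BC CML against miR-142 KO was lost with the likelihood ratio test. Signs turned only for values near 0: Rrm2 in BC CML against CP CML was 0.0016 in males, and Ccne1 in miR-142 KO against WT was 0.0087 in females and -0.26 to 0.0188 with a mouse left out. Medians over the 39 genes moved by less than the spread between mice. Each of the 39 genes had 253 reads or more in each library, and counting error was not separated from the spread between mice. Where the mice lay close together, counting error can be a large part of that spread. An example is Chaf1b in BC CML, with an SD of 1.7% of its mean.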

Other observations

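Replication-dependent histone genes, whose mRNAs end in a stem-loop bound by Slbp and lack a poly(A) tail, were measured in libraries made from poly(A) RNA, so their rows hold only what such a preparation catches. Of 64 listed, 27 passed the filter on low counts. In BC CML against miR-142 KO 0 rose and 6 fell, and in miR-142 KO against WT 4 rose and 0 fell (0 and 0 without WT mice 1 and 4). With all mice, 20.3% and 19.3% of all tested genes were called higher and lower in the first comparison, and 19.9% and 16.4% in the second. Hist2h2be was at 20.7 ± 4.51 CPM in miR-142 KO and 13.4 ± 1.42 in BC CML (SD, n = 6; log2 fold change -0.63, edgeR adjusted p = 0.000238).

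Upstream of S phase, Skp2, which marks the inhibitor p27 for degradation, rose by 0.66 in BC CML against CP CML (adjusted p = 3.85e-06), from 38.8 ± 2.33 to 61.4 ± 6.36 CPM. Ccnd2, a D-type cyclin, fell by 0.53 in BC CML against CP CML (adjusted p = 2.9e-05) and by 0.53 in miR-142 KO against WT (adjusted p = 2.62e-05). The inhibitors Cdkn2a and Cdkn2b, at or near 0 in WT and miR-142 KO, averaged 1.30 ± 1.33 and 0.38 ± 0.37 CPM in CP CML and 3.35 ± 0.69 and 0.97 ± 0.28 in BC CML. Of 15 genes of stem cell identity and quiescence, 13 fell and 0 rose in CP CML against WT, and 10 fell and 1 rose in BC CML against CP CML. Of all tested genes, 22.9% were called lower and 22.5% higher in the first comparison, and 17.6% and 20.4% in the second.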
